A study of Mus musculus with 14 samples.

Results

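Genes of the cell cycle and DNA replication were followed through bulk RNA-seq libraries of mouse plexiform neurofibromas (PNs) and control tissue. They were taken by gene symbol from a named list, and 40 of the 24062 genes in the deposited count table were on it. The list holds the proliferation marker *Mki67*, cyclins and *Cdk1*, checkpoint and spindle genes, the licensing factors and helicase subunits of the replication origin, enzymes of nucleotide synthesis, and the transcription factors *E2f1* and *Foxm1*. PNs are benign tumors of peripheral nerve that arise when Schwann cells, the glia of nerve, lose *Nf1*.

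The study compared 3 control libraries with 5 slow-growing and 6 fast-growing PNs, 14 libraries in all. Controls were dorsal root ganglia (DRGs) with nerves of Nf1fl/fl mice, which carry the floxed allele and no Cre. PNs came from DhhCre;Nf1fl/fl mice, in which the *Dhh* promoter drives Cre in the Schwann cell lineage, so that other cells of the tumor keep *Nf1*. The labels give a mixed C57BL/6, I-129 and FVBN background and no drug treatment for all groups, and the Methods give an age of 9 months (a figure legend gives 7 months for these samples). A PN was fast-growing when its volume rose by over 35 mm3, and slow-growing when it changed by under 5 mm3, between MRI scans at 7 and 9 months of age. The labels do not say whether the control libraries came from separate animals, so p-values measure the spread between these libraries, which may in part be technical.

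A dividing cell passes from G1 through DNA synthesis (S phase) and G2 into mitosis, and most of these genes are transcribed in waves along that path. In G1 and early S phase, E2F factors switch on cyclin E, the clamp *Pcna*, the MCM helicase and the enzymes that make nucleotides. Later, the DREAM and MYB-MuvB complexes act through a promoter element called the CHR, often beside CCAAT boxes, on cyclin B, *Cdk1* and the genes of spindle and centromere. In adult nerve and ganglia few Schwann cells divide, and neurons do not.

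Promoter sequences show the elements that these genes share. RefSeq windows on GRCm38.p6, from 250 bases before to 50 after the start of transcription, were matched for 34 of the 40 genes. *Ccna2*, *Ccne2*, *Kif20a*, *Tpx2*, *Mcm4* and *Foxm1* were not matched. The letters TTTGAA (the core of the CHR) stood on either strand in 15 of the 34 windows, or 44.1%, against 18.1% of 27025 windows of all genes. CCAAT was found in 26 windows (76.5%, against 37.9%), and all 15 windows with TTTGAA also held CCAAT, a combination found in 7.12% of all windows. An E2F site, searched as TTTCCCGC, TTTGGCGC, TTTGCCGC or TTTCGCGC, was found in 7 windows (20.6%, against 2.32%), 6 of them among the 8 windows of licensing, helicase and clamp genes. In 1 place sites of different motifs overlapped. A match of letters is a description of the window and not a binding site.

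The windows of 5 genes are printed here, from 250 bases before to 30 after the start, 5′ to 3′ along the gene. *Cdk1* is the gene whose window holds all 3 kinds of motif, and the others are genes whose levels are described below. Capitals mark the motifs on either strand. All 5 genes lie on the minus strand, at chr7:135716350-135716629 (*Mki67*), chr10:69352883-69353162 (*Cdk1*), chr11:40733408-40733687 (*Hmmr*), chr1:20820283-20820562 (*Mcm3*) and chr5:30073596-30073875 (*Tyms*).
Mki67: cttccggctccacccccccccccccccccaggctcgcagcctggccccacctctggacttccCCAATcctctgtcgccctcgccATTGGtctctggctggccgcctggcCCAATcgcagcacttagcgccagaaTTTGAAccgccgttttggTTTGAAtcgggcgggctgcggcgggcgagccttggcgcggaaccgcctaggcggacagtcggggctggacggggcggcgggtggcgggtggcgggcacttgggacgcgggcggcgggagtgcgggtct
Cdk1: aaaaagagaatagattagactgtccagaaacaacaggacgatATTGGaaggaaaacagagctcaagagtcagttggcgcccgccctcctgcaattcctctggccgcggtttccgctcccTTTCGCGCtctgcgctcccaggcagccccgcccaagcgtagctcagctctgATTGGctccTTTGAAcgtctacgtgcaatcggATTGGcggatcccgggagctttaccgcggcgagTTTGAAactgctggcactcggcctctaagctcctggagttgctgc
Hmmr: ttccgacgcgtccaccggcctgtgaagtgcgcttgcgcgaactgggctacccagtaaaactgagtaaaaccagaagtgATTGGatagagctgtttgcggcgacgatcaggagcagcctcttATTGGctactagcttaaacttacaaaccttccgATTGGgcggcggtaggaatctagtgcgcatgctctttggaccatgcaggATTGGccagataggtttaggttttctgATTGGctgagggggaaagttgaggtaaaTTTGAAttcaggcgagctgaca
Mcm3: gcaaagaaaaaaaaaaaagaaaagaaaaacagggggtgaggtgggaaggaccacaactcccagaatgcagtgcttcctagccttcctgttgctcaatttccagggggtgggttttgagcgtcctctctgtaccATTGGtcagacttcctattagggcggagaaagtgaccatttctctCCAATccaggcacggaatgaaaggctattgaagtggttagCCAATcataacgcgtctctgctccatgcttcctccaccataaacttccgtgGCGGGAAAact
Tyms: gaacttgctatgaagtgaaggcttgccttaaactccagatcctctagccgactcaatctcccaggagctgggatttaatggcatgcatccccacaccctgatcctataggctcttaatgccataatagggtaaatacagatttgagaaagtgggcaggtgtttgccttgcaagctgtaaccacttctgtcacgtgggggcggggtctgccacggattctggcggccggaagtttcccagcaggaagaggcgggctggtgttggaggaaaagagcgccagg

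*Mki67* held TTTGAA at 116 and 98 bases before the start, and *Cdk1* at 71 and 15 bases before it, each beside 3 CCAAT boxes. *Hmmr* had 5 CCAAT boxes and 1 TTTGAA that begins at base 9 after the start. *Mcm3*, a helicase subunit, had 3 CCAAT boxes and no TTTGAA; its printed E2F site begins at base 20 and another at base 39, past the printed end. None of the searched letters were in the window of *Tyms*, which says nothing about the factors that act there. The RefSeq start on which the window for *E2f1* rests lies 466 bases inside the GENCODE gene, and that window is not printed; the starts used for *Cdc6*, *Chek1*, *Kif4* and *Mcm7* also lie over 300 bases inside.

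Libraries held between 9596773 and 17594164 counts. Levels are given in CPM, counts scaled to a common library total, after TMM normalization, which aligns the bulk of genes between libraries. *Nf1* itself stood at 129 to 227 CPM in controls and at 225 to 294 CPM in PNs; these counts cover the whole gene in all cells of the tissue, and so do not check the deletion. Summed Schwann cell markers reached 1215 to 3366 CPM in controls and 3108 to 5757 CPM in PNs, and sensory neuron markers 1528 to 12872 CPM in 13 libraries, but 32.7 CPM in fast-growing PN 1191. Controls held more skeletal muscle RNA (3603 to 14690 CPM, against 25.0 to 3425 CPM in PNs) and more fat RNA (3757 to 5803 CPM, against 6.29 to 2779 CPM).

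Before any comparison of groups, 4 libraries stood apart in immune genes. The sum of 7 T cell markers was 340 CPM in control DRG4, 201 CPM in control DRG5, 282 CPM in slow-growing PN 1079 and 167 CPM in fast-growing PN 1191. In the other 10 libraries it lay between 6.69 and 39.8 CPM, and each of the 7 markers was higher in each of the 4 libraries than in any of the 10. *Cd4*, a coreceptor of T cells, read 122, 76.4, 69.9 and 49.1 CPM in those 4 libraries and at most 7.97 CPM elsewhere.

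PNs 1079 and 1191 also held genes of lymphocytes that are rearranging their receptor genes. *Rag1*, a subunit of the recombinase, was at 189 CPM in PN 1079 and 102 CPM in PN 1191, and at most 13.4 CPM in the other 12 libraries. *Dntt*, which adds bases at receptor joints, was at 71.0 and 29.9 CPM there and at most 6.33 CPM elsewhere. Control DRG5 carried the highest sum of granulocyte precursor markers, 1881 CPM against 26.8 to 299 CPM in the rest, with *Mpo*, a granule enzyme made by such precursors, at 154 CPM.

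The cell cycle genes were highest in the same 4 libraries. Summed over the 40 genes, the level was 313 CPM in control DRG3, 628 CPM in control DRG4 and 1162 CPM in control DRG5. Among slow-growing PNs it was 700 CPM in PN 1079 and 264 to 377 CPM in the rest, and among fast-growing PNs 919 CPM in PN 1191 and 345 to 510 CPM in the rest. The plot of the summed genes against T cell markers shows these 4 libraries together at the upper right, in a description with no test. The part of T cells and their precursors, or of granulocyte precursors, in these levels was not tested, and in bulk tissue more cells of a type and more RNA per cell cannot be told apart.

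**Figure D1:**
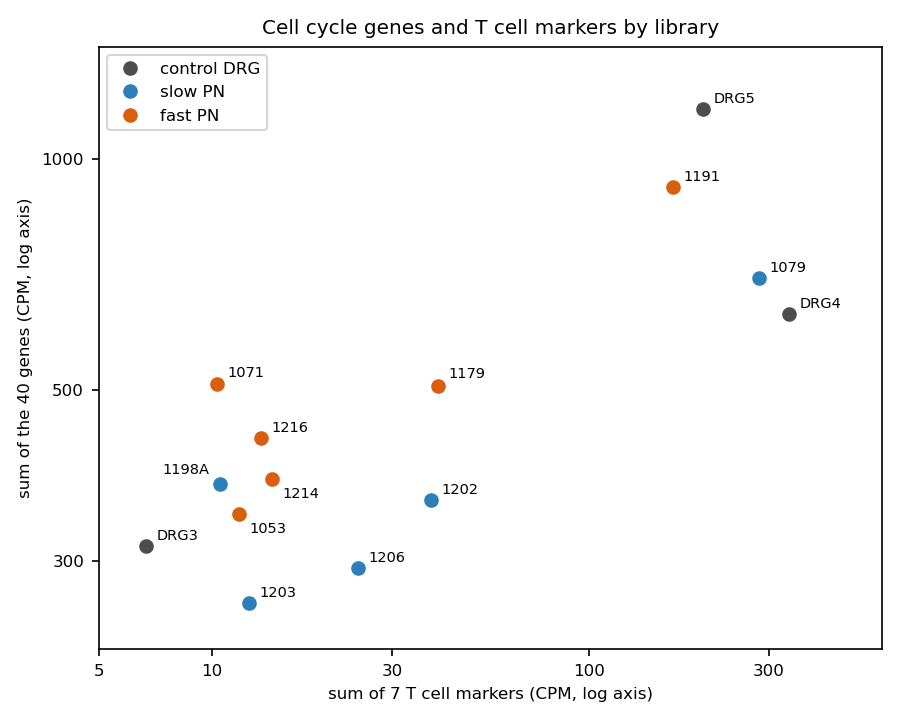
Summed level of the 40 cell cycle genes (y axis, CPM, log axis) against the summed level of 7 T cell markers (x axis, CPM, log axis), 1 point for each of the 14 libraries, colored by group. Control DRG4 and DRG5, slow-growing PN 1079 and fast-growing PN 1191 lie above 100 CPM of T cell markers and at 628 CPM or more of cell cycle genes, and the other 10 libraries lie at 39.8 CPM or less and 510 CPM or less.

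Member by member, control DRG5 was the highest control for 39 of the 40 genes, although it was the highest control for 29.5% of all 16283 genes tested. Control DRG3 was the lowest control for 37 (36.3% of all genes). Slow-growing PN 1079 was the highest of its group for 38 genes (14.1% of all genes) and fast-growing PN 1191 for 36 (26.3%). The heatmap shows these columns rising as blocks across roles. The median SD between controls was 0.91 on the log2 scale for the 40 genes, against 0.28 for all genes; it was 0.58 against 0.37 in slow-growing and 0.54 against 0.29 in fast-growing PNs.

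**Figure D2:**
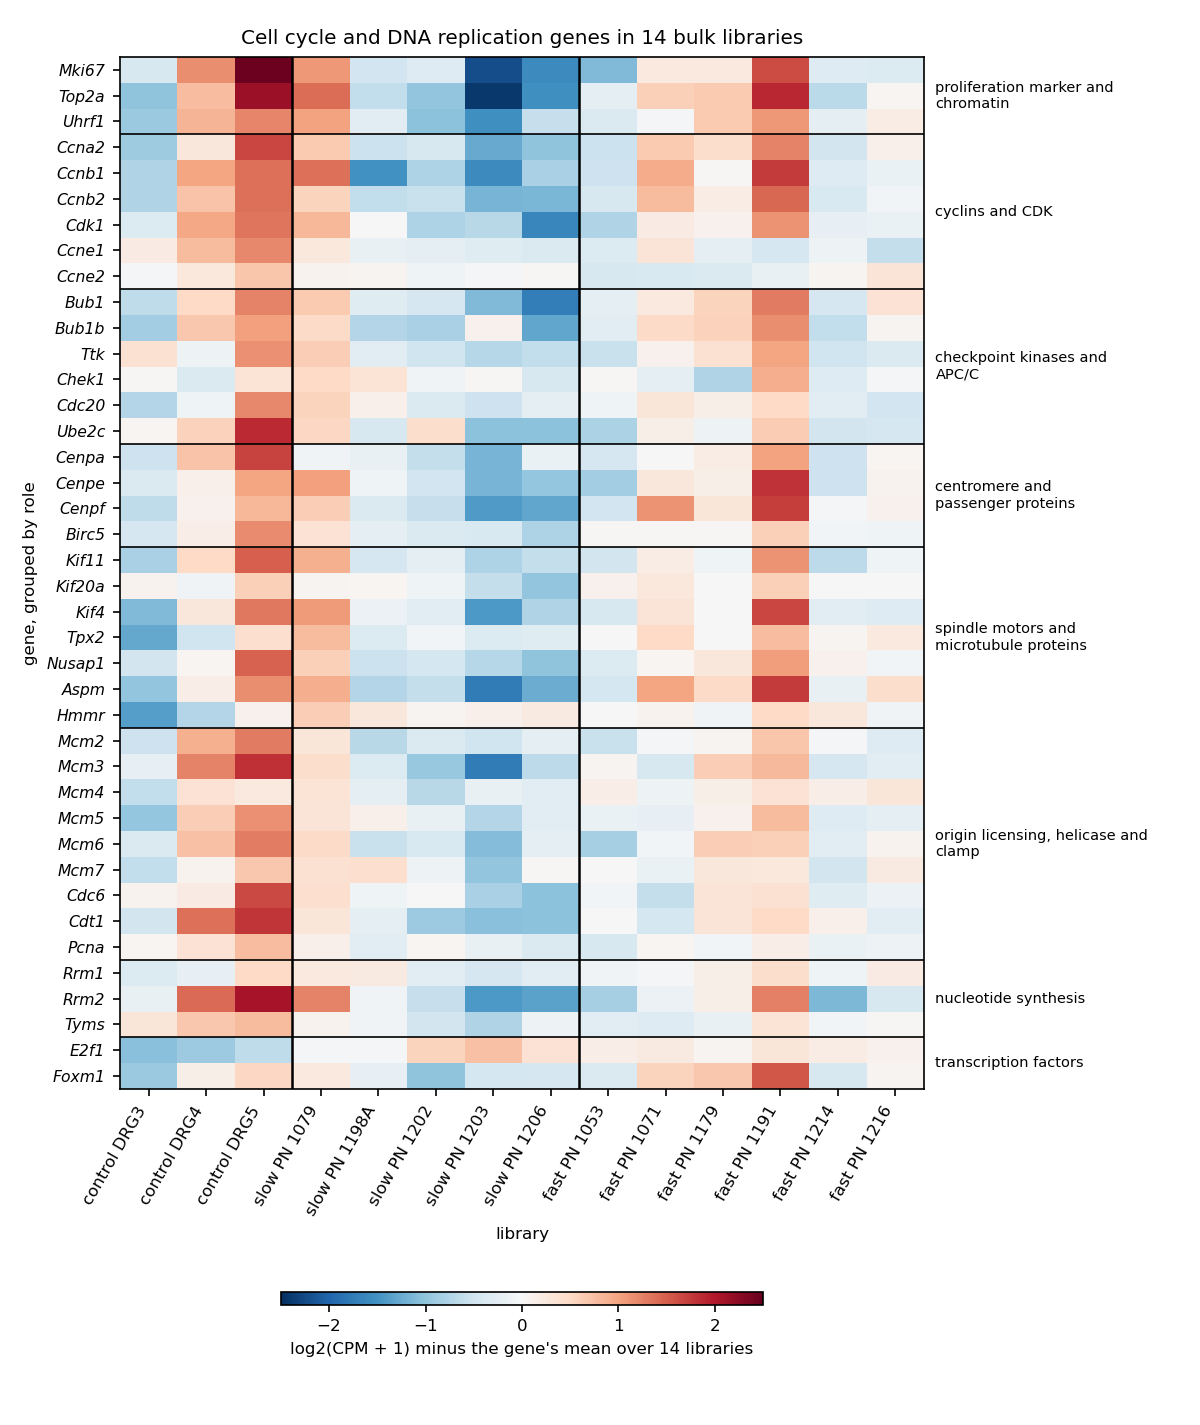
Level of each of the 40 genes (rows, grouped by role) in each of the 14 libraries (columns, grouped by condition), as log2(CPM + 1) minus the mean of that gene over all libraries; red is above and blue below the mean. Control DRG5, slow-growing PN 1079 and fast-growing PN 1191 are red through most roles, whereas *E2f1* is blue in all 3 controls.

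Per kilobase of transcript, averaged over the 14 libraries, *Pcna*, the sliding clamp of DNA polymerase, had the highest level at 32.5 CPM per kb. *Hmmr* (8.38 CPM per kb) and *Mki67* (8.25 CPM per kb) followed, and *Cdk1*, the kinase that drives mitosis, was lowest at 0.599 CPM per kb. This order differed between groups. *Mki67* had a mean of 16.3 CPM per kb in controls and 6.07 in PNs, and *Hmmr* of 5.40 and 9.19. In controls *Chek1* (0.813 CPM per kb) was below *Cdk1* (1.02 CPM per kb). *Cdk1* had between 0 and 76 counts in a library, so its values rest on few reads. All 40 genes passed the filter on low counts in every comparison.

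Few of the genes differed between groups beyond this spread. In slow-growing PNs against controls, edgeR's quasi-likelihood test called 2 of the 40 at a Benjamini-Hochberg adjusted p under 0.05, where 11.3% of all 15714 genes were called. *E2f1* was higher (4.12% of all genes were) and *Tyms* lower (7.13%). In fast-growing PNs against the same controls 4 were called, where 31.4% of all genes were: *E2f1* was higher (14.8% of all genes), and *Ccne1*, *Tyms* and *Pcna* were lower (16.7%). With the 11 PNs as 1 group 8 were called (26.3% of all genes): *E2f1* and *Hmmr* higher (12.9% of all genes) and *Ccne1*, *Tyms*, *Pcna*, *Cdt1*, *Ube2c* and *Mcm3* lower (13.4%). These 3 comparisons share the control libraries.

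Most of the remaining genes had fitted values below 0 without passing the test. In slow-growing PNs 36 of the 40 lay below 0 (47.8% of all genes did), with a median log2 fold change of -0.94 against 0.04 for all genes. In fast-growing PNs 31 lay below 0 (48.9% of all genes), with a median of -0.47 against 0.02, and over all PNs 34 did (44.3%), with a median of -0.61 against 0.10. At an unadjusted p under 0.05 there were 12 genes in slow-growing PNs (30.3% of all genes), 9 in fast-growing PNs (41.8%) and 13 over all PNs (38.9%). The controls alone span more than these medians, since DRG3 is near the PNs and DRG5 above nearly all of them. Without DRG3 the number called was 8 in slow-growing PNs, 10 in fast-growing PNs and 13 over all PNs, where 15.3%, 31.9% and 25.7% of all genes were called in the same fits. Without DRG4 it was 0, 2 and 4 (4.27%, 22% and 14.9% of all genes). In slow-growing PNs it was also 0 without DRG5 (3.74%) or PN 1202 (6.73%), and 1 without PN 1079, 1198A or 1206 (6.19% to 9.57%). In fast-growing PNs it was 8 without PN 1191 (32.1%), and over all PNs it was 2 without DRG5 (12.5%) and 5 without PN 1198A (25.1%).

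**Figure D3:**
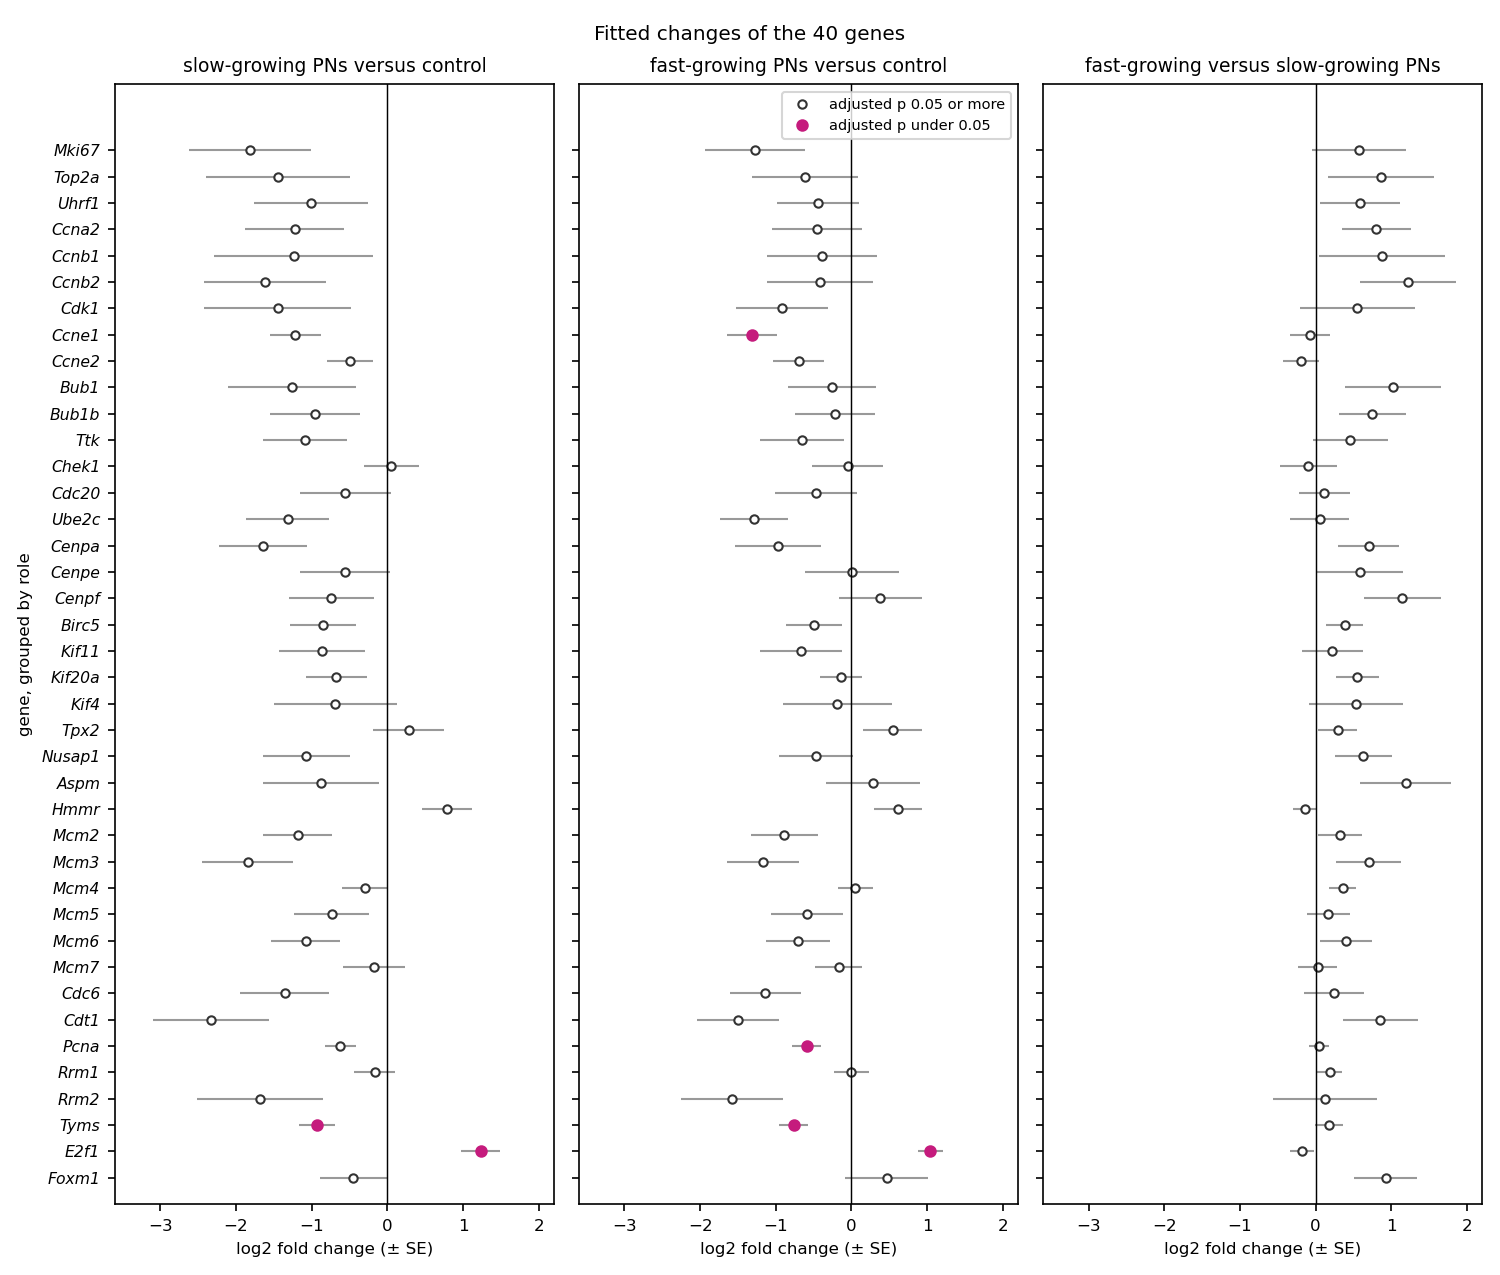
Fitted log2 fold change with its SE (x axis) for each of the 40 genes (y axis, grouped by role) in slow-growing PNs against control, fast-growing PNs against control, and fast-growing against slow-growing PNs; filled points passed an adjusted p of 0.05. *E2f1* stands to the right in both comparisons with controls, and no point is filled between the PN groups.

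*E2f1*, a transcription factor that switches on S phase genes, was called higher in all 3 comparisons with controls (chr2:154559407-154569892, mm10). It measured 6.69, 7.42 and 9.28 CPM in controls DRG3, DRG4 and DRG5. Slow-growing PNs 1079, 1198A, 1202, 1203 and 1206 read 14.3, 14.3, 22.4, 25.5 and 19.3 CPM, and fast-growing PNs had a lowest value of 15.6, a median of 17.0 and a highest of 18.6 CPM. Every PN was above every control, as was so for 8.51% of all genes (11.6% with slow-growing and 17.8% with fast-growing PNs alone). Its log2 fold change over all PNs was 1.18 ± 0.19 (SE, n = 11 and 3; edgeR adjusted p = 0.000583), and an exact two-sided permutation test gave p = 0.00275, the smallest that 364 arrangements can give. In slow-growing PNs it was 1.23 ± 0.26 (adjusted p = 0.0201) and in fast-growing PNs 1.04 ± 0.16 (adjusted p = 0.00125). The slow-growing call was lost without control DRG4 (adjusted p = 0.0879), DRG5 (0.0557) or PN 1202 (adjusted p = 0.0543).

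The highest *E2f1* values were in slow-growing PNs 1202, 1203 and 1206, whose summed cell cycle level was 264 to 359 CPM. Within controls DRG5 was the highest, and within fast-growing PNs 1191. Without the 4 libraries high in T cell markers, which leaves 1 control whose spread is assumed to be that of the other groups, the log2 fold change over all PNs was 1.42 (adjusted p = 0.0366; 3.21e-07 to 0.0366 over 9 alternatives). *Foxm1*, the other transcription factor of the list and a driver of mitotic genes, ranged from 3.09 to 10.1 CPM in controls, 2.86 to 8.20 CPM in slow-growing and 4.82 to 21.6 CPM in fast-growing PNs, and was not called (log2 fold change 0.18 over all PNs, adjusted p = 0.833).

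*Hmmr*, which binds microtubules of the spindle and is also a receptor for hyaluronan, was the other gene called higher over all PNs (chr11:40701395-40733422). Controls DRG3, DRG4 and DRG5 read 11.3, 18.2 and 33.5 CPM. In slow-growing PNs 1079, 1198A, 1202, 1203 and 1206 the values were 47.9, 37.7, 32.7, 33.9 and 36.3 CPM, and fast-growing PNs had a lowest value of 29.1, a median of 32.0 and a highest of 44.5 CPM. Control DRG5 overlapped the PNs and the other 2 controls were below all of them. Over all PNs the fold change on the log2 scale was 0.75 ± 0.26 (SE, n = 11 and 3; edgeR adjusted p = 0.0430), and 1.54 without the 4 libraries high in T cell markers (adjusted p = 0.00620; 0.00591 to 0.177 over 9 alternatives). The call was lost without any 1 of 10 libraries: DRG3, DRG4, 1079, 1198A, 1202, 1206, 1053, 1071, 1191 or 1214, with log2 fold changes from 0.45 to 0.75 and adjusted p from 0.0530 to 0.178.

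Among the other spindle genes, none of *Kif11*, *Kif20a*, *Kif4*, *Tpx2*, *Nusap1* and *Aspm* was called in any comparison. *Kif11* is the motor that separates the spindle poles, and *Tpx2* activates the Aurora A kinase on spindle microtubules. Of the 6, *Tpx2* alone had values above 0 in both PN groups (log2 fold change 0.28 in slow-growing and 0.55 in fast-growing PNs, not passing the test). *Kif20a* shares exon bases with *Cdc23*, *Kif4* with *Pdzd11* and *Nusap1* with *Oip5* on the opposite strand; the strand used in counting is not given in the sources used here, so such reads cannot be assigned with certainty.

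Of the enzymes of nucleotide synthesis, *Tyms* was called lower in all 3 comparisons with controls. This thymidylate synthase, which makes the thymidine nucleotide, read 27.4, 35.8 and 39.0 CPM in the 3 controls (chr5:30058202-30073617). The slow-growing PNs, in the same order, had 23.5, 20.7, 15.8, 12.7 and 20.0 CPM, and fast-growing PNs a lowest value of 17.5, a median of 20.1 and a highest of 28.1 CPM. All slow-growing PNs were below all controls, as for 12% of all genes, and among fast-growing PNs 1191 overlapped control DRG3; no member had every PN below every control, which 9.13% of all genes had. Fold changes on the log2 scale were -0.93 ± 0.24 in slow-growing PNs (edgeR adjusted p = 0.0397), -0.76 ± 0.19 in fast-growing PNs (adjusted p = 0.0144) and -0.79 ± 0.18 over all PNs (adjusted p = 0.00648; exact permutation p = 0.00549).

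The *Tyms* calls changed with single libraries left out, while the values stayed below 0. Without DRG5 they were lost in slow-growing (-0.83, adjusted p = 0.172), fast-growing (-0.60, 0.0755) and all PNs (-0.68, 0.0603), and without DRG4 in the slow-growing (-0.88, 0.145) and fast-growing (-0.73, 0.0574) PNs. The slow-growing call was also lost without PN 1079, 1198A, 1202 or 1206 (adjusted p from 0.0566 to 0.0973). Without the 4 libraries high in T cell markers the value over all PNs was -0.57 (adjusted p = 0.386; 0.000550 to 0.386 over 9 alternatives). The 2 subunits of ribonucleotide reductase, which makes deoxynucleotides, were not called: *Rrm2* had a log2 fold change of -1.58 over all PNs (adjusted p = 0.0909). *Rrm1* read 21.5, 23.9 and 39.2 CPM in the controls, 33.0, 32.2, 22.4, 20.4 and 22.6 CPM in the slow-growing PNs in the order above, and 25.7 at the lowest, 28.8 at the median and 37.6 CPM at the highest in fast-growing PNs. All 3 groups of *Rrm1* values overlapped.

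*Ccne1*, cyclin E1, which with CDK2 starts S phase, had lower values in PNs (chr7:38097984-38107534). Controls DRG3, DRG4 and DRG5 read 3.77, 6.14 and 8.55 CPM. Slow-growing PNs read 3.95 CPM in 1079, 2.63 in 1198A, 2.55 in 1202, 2.38 in 1203 and 2.22 in 1206, and fast-growing PNs had a lowest value of 1.75, a median of 2.42 and a highest of 4.16 CPM. PN 1079 and the highest fast-growing PN, 1071, passed the lowest control, and the other 9 PNs were below all controls. It changed by -1.32 ± 0.33 on the log2 scale in fast-growing PNs (edgeR adjusted p = 0.0139) and -1.22 ± 0.27 over all PNs (adjusted p = 0.00461; exact permutation p = 0.00824). In slow-growing PNs it was -1.22 ± 0.34 and did not pass (adjusted p = 0.0538).

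Control DRG5 decided this call too. Without it, the adjusted p of *Ccne1* was 0.107 in fast-growing PNs (log2 fold change -0.94) and 0.0719 over all PNs (-0.90). Without the 4 libraries high in T cell markers the value over all PNs was -0.56 (adjusted p = 0.555; 0.000159 to 0.583 over 9 alternatives). Muscle and fat scores as covariates turned the value in fast-growing PNs to 0.18.

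The mitotic cyclins and *Cdk1* were not called in any comparison. *Ccna2*, cyclin A2, which acts in S phase and G2, read 4.46, 11.4 and 31.2 CPM in controls DRG3, DRG4 and DRG5. The 5 slow-growing PNs, from 1079 to 1206 as above, read 14.8, 5.94, 6.64, 3.20 and 4.05 CPM, and fast-growing PNs had a lowest value of 5.91, a median of 11.4 and a highest of 23.0 CPM. The PNs fell almost wholly within the span of the 3 controls (log2 fold change -0.69 ± 0.56 over all PNs, adjusted p = 0.384). Its exons overlap those of *Exosc9* on the opposite strand, and those of *Ccne2* overlap *Ints8*. *Ccnb1* and *Ccnb2*, the B cyclins that activate *Cdk1*, had log2 fold changes of -0.65 and -0.78 over all PNs, and *Ccne2* of -0.55.

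**Figure D4:**
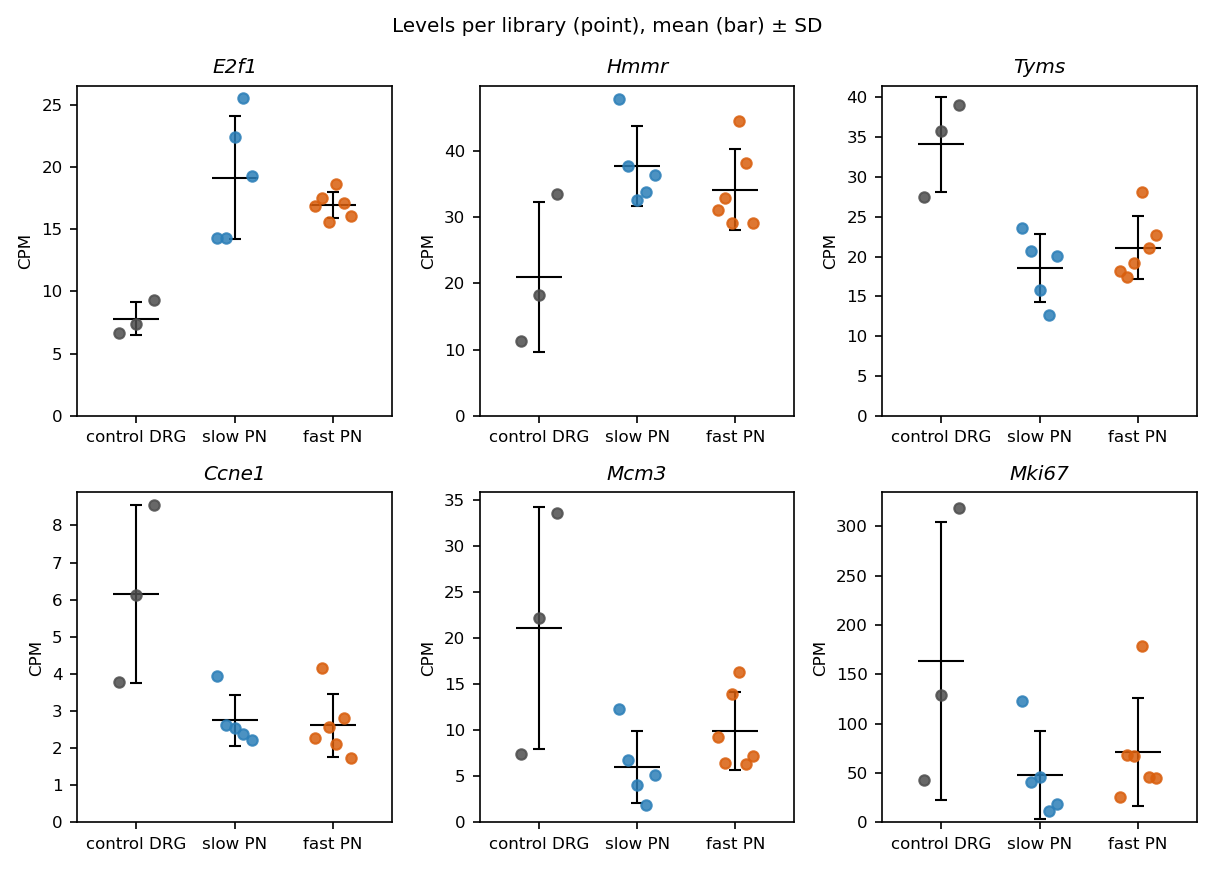
CPM of *E2f1*, *Hmmr*, *Tyms*, *Ccne1*, *Mcm3* and *Mki67* (y axes) in control DRGs (n = 3), slow-growing PNs (n = 5) and fast-growing PNs (n = 6), 1 point per library, with the group mean and SD as bars; a bar that would pass below 0 ends at 0. *E2f1* is the gene of the 6 with no overlap between controls and either PN group, and the spread of *Mki67* among controls runs from 43.0 to 318.5 CPM.

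Of the 9 genes that license and copy DNA, all had values below 0 over all PNs (44.3% of all genes did), with a median log2 fold change of -0.81 over all PNs against 0.10 for all genes, and 3 were called lower (13.4% of all genes). *Pcna*, the clamp, read 50.2, 62.3 and 83.2 CPM in controls DRG3, DRG4 and DRG5 (chr2:132249162-132253314). The slow-growing PNs, listed as before, read 52.4, 39.5, 49.5, 42.3 and 37.2 CPM, and fast-growing PNs had a lowest value of 36.1, a median of 45.0 and a highest of 54.4 CPM. PNs 1079 and 1191 passed the lowest control. Its fold change on the log2 scale was -0.55 ± 0.15 over all PNs (edgeR adjusted p = 0.0161; exact permutation p = 0.00824) and -0.59 ± 0.19 in fast-growing PNs (adjusted p = 0.0369).

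Without DRG5, *Pcna* had a log2 fold change of -0.34 over all PNs (adjusted p = 0.201) and -0.32 in fast-growing PNs (0.241). The fast-growing call was also lost without DRG4, or PN 1053, 1179, 1214 or 1216 (adjusted p from 0.0669 to 0.0821). It was -0.24 over all PNs without the 4 libraries high in T cell markers (adjusted p = 0.601; 0.00196 to 0.601 over 9 alternatives).

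*Cdt1*, which loads the MCM helicase on origins, read 1.2, 6.87 and 9.38 CPM in controls DRG3, DRG4 and DRG5. Among slow-growing PNs 1079, 1198A, 1202, 1203 and 1206 it read 2.73, 1.58, 0.613, 0.458 and 0.482 CPM, and fast-growing PNs had a lowest value of 1.23, a median of 2.15 and a highest of 3.25 CPM. Control DRG3 lay within the PNs and the other 2 controls above them. Over all PNs the log2 change was -1.76 ± 0.56 (edgeR adjusted p = 0.0315), lost without DRG4 (-1.62, adjusted p = 0.125) or DRG5 (-1.23, 0.254). Without the 4 libraries high in T cell markers its sign turned, to 0.25 (adjusted p = 0.934; 0.0142 to 0.934 over 9 alternatives).

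*Mcm3*, a subunit of the helicase, had the same shape: 7.46, 22.2 and 33.7 CPM in controls DRG3, DRG4 and DRG5. The slow-growing PNs, again from 1079 to 1206, read 12.3, 6.76, 4.09, 1.92 and 5.20 CPM, and fast-growing PNs had a lowest value of 6.31, a median of 8.25 and a highest of 16.3 CPM. Again DRG3 lay among the PNs. Its log2 change over all PNs was -1.38 ± 0.48 (edgeR adjusted p = 0.0460), and -0.14 without the 4 libraries high in T cell markers (adjusted p = 0.953; 0.0249 to 0.953 over 9 alternatives). The call was lost without any 1 of DRG4, DRG5, 1198A, 1202, 1206, 1053, 1071, 1214 or 1216, with log2 fold changes from -1.43 to -0.87 and adjusted p from 0.0558 to 0.348.

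The other subunits of the helicase ring gave a range of values. Over all PNs the log2 fold change was -0.96 for *Mcm2*, -0.04 for *Mcm4*, -0.60 for *Mcm5*, -0.81 for *Mcm6* and -0.12 for *Mcm7*, and none passed. *Mcm7* shares exon bases with *Ap4m1* and *Cops6* on the opposite strand. *Cdc6*, the partner of *Cdt1* in loading, had -1.18 and did not pass.

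Of the checkpoint genes and the anaphase-promoting complex (APC/C), which marks mitotic proteins for destruction, *Ube2c* was called lower over all PNs. This conjugating enzyme of the APC/C read 11.4, 17.0 and 42.7 CPM in controls DRG3, DRG4 and DRG5. Slow-growing values, in the order given, were 16.2, 8.12, 15.3, 4.94 and 4.92 CPM, and fast-growing PNs had a lowest value of 5.97, a median of 8.98 and a highest of 17.8 CPM. Controls DRG3 and DRG4 overlapped the PNs, and DRG5 was above them. It had a log2 fold change of -1.25 ± 0.41 (edgeR adjusted p = 0.0377; exact permutation p = 0.0357).

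That call rested on DRG5, without which the log2 fold change was -0.50 (adjusted p = 0.515). It was also lost without DRG4, 1198A, 1179 or 1216 (adjusted p from 0.0505 to 0.0590), and was -0.43 without the 4 libraries high in T cell markers (adjusted p = 0.753; 0.0168 to 0.858 over 9 alternatives). *Ube2c* shares 592 exon bases on the opposite strand with *Tnnc2*, a troponin of skeletal muscle, and DRG5 is also the library with most muscle RNA; the part of *Tnnc2* reads was not tested. *Bub1*, *Bub1b* and *Ttk*, kinases that hold anaphase until chromosomes are attached, *Cdc20*, which activates the APC/C, and *Chek1*, which answers stalled replication, were not called.

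Centromere and passenger genes gave no call. *Cenpf*, a large protein of the kinetochore, the plate where chromosomes meet the spindle, read 7.37, 13.0 and 22.1 CPM in controls DRG3, DRG4 and DRG5. The slow-growing PNs in order read 18.9, 9.09, 7.76, 3.85 and 4.24 CPM, and fast-growing PNs had a lowest value of 8.25, a median of 14.02 and a highest of 42.3 CPM. All 3 groups overlapped. *Cenpa*, the histone that marks the centromere, had log2 fold changes of -1.64 in slow-growing and -0.97 in fast-growing PNs, *Cenpe*, a motor of the kinetochore, of -0.56 and 0.01, and *Birc5*, survivin of the passenger complex, of -0.85 and -0.49; none passed.

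*Mki67*, the gene of the proliferation marker Ki-67, showed how wide the groups were. It read 43.0, 129.0 and 318.5 CPM in controls DRG3, DRG4 and DRG5. Slow-growing PNs in the same order read 123.4, 41.0, 45.8, 11.6 and 18.3 CPM, and fast-growing PNs had a lowest value of 26.1, a median of 56.6 and a highest of 178.8 CPM. Control DRG4 exceeded 10 of the 11 PNs and DRG5 all 11. The log2 change over all PNs was -1.44 ± 0.64 (edgeR adjusted p = 0.111) and passed only when PN 1191 was left out (-1.77, adjusted p = 0.0351), as it did in fast-growing PNs (-1.27, adjusted p = 0.179 with it and -1.80, 0.0359 without it). Without the 4 libraries high in T cell markers the value in fast-growing PNs was 0.21 (adjusted p = 0.819; 0.129 to 0.910 over 10 alternatives).

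*Top2a*, the topoisomerase that untangles chromosomes, and *Uhrf1*, which copies DNA methylation, had log2 fold changes of -0.88 and -0.62 over all PNs and were not called. *Top2a* read 9.60, 35.5 and 93.0 CPM in the 3 controls, and the PNs read 3.02 to 77.6 CPM, within the highest control.

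With those 4 libraries set aside, control DRG3, 4 slow-growing and 5 fast-growing PNs remained. DRG3 then lay within the range of the 9 PNs for 32 of the 40 genes, and for 66.3% of all genes. The mean of slow-growing PNs was below DRG3 for 23 genes (42.3% of all genes) and that of fast-growing PNs for 10 (44.8%), and the mean of fast-growing was above that of slow-growing PNs for 36 (46.1%). With 1 control, the counts against DRG3 are given without a test. Between these 5 fast-growing and 4 slow-growing PNs, edgeR called 0 of the 40 genes and 0.0129% of all genes.

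Between fast-growing and slow-growing PNs the question was whether growth on MRI went with more cell cycle RNA. Of the 40 genes, 35 had values above 0 and 5 below (53.5% of all genes lay below), with a median log2 fold change of 0.43 against -0.03 for all genes, and the edgeR test called 0 of the 40 at an adjusted p under 0.05, where 1.27% of all 15465 genes were called (0.802% higher and 0.466% lower). At an unadjusted p under 0.05 there were 2, *Cenpf* and *Foxm1*, where 20.4% of all genes passed. DESeq2 and limma-voom also called 0. The 35 genes are not independent of each other, since they rise and fall together between libraries. Cell type markers also differed between the PN groups. Summed macrophage markers read 276 to 820 CPM in fast-growing PNs (median 609). In slow-growing PNs they read 49.1 to 473 CPM (median 139), highest in PN 1198A. Fibroblast medians were 8365 CPM in fast-growing and 3922 CPM in slow-growing PNs. Fat (55.1 and 1596 CPM) and skeletal muscle (181 and 1043 CPM) medians went the other way. The part of these cell types in the 40 genes was not tested.

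*Cenpf* had a log2 fold change of 1.15 ± 0.51 between the PN groups (edgeR adjusted p = 0.236; exact permutation p = 0.0628) and *Foxm1* of 0.93 (adjusted p = 0.235). *Mki67* had 0.58 ± 0.62 (adjusted p = 0.618), and 0.06 without PN 1191 and 1.31 without PN 1079, the high library of each group. *Ccnb2*, cyclin B2, had the highest value, 1.22, and *Ccne2* the lowest, -0.19. *E2f1*, *Hmmr* and *Ccne1* had values of -0.18, -0.14 and -0.08. No gene had all fast-growing above all slow-growing PNs, which was so for 2.13% of all genes, or all below, which was so for 0.905%.

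Other genes of the same processes were counted from lists chosen with results of these data known. Of 46 other mitosis genes, 1 was called higher and 4 lower over all PNs (12.9% and 13.4% of all genes were), with a median log2 fold change of -0.54 against 0.10 for all genes. *Nuf2*, of the kinetochore complex that grips microtubules, read 0.857, 3.30 and 8.55 CPM in controls and 17.2 to 28.6 CPM in PNs, with every PN above every control. Its log2 fold change over all PNs was 2.37 ± 0.46 (edgeR adjusted p = 0.00188), called without each library in turn. In slow-growing PNs alone it was 2.33 (edgeR adjusted p = 0.0423). That call was lost without any 1 of DRG4, 1079, 1198A, 1202, 1203 or 1206 (adjusted p from 0.0507 to 0.163). Without the 4 libraries high in T cell markers, DRG3 was the only control left, with *Nuf2* at its lowest, 0.857 CPM. The *Nuf2* value was then 4.61 in slow-growing and 4.55 in fast-growing PNs, and rests on that single low reading. *Spc24*, a partner of *Nuf2* in that complex, moved the other way, from 10.8 to 18.2 CPM in controls to 6.14 to 9.93 CPM in PNs (-0.92 ± 0.17, adjusted p = 0.00122); it was -0.43 without the 4 libraries high in T cell markers (adjusted p = 0.509; 6.71e-06 to 0.509 over 9 alternatives). *Cks2*, which binds cyclin-dependent kinases (-1.26, adjusted p = 0.0141), and *Aurka*, the Aurora A kinase (-1.12, 0.0159), were also lower, and both calls were lost without DRG5 (-0.65, adjusted p = 0.269, and -0.88, 0.135).

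Of 44 other S phase genes 0 were higher and 7 lower over all PNs (12.9% and 13.4% of all genes), with a median of -0.41. *Gmnn*, geminin, which blocks *Cdt1*, had -1.35 (adjusted p = 0.00768), *Asf1b*, a histone chaperone, -1.72 (0.0102), and *Tk1*, thymidine kinase, -1.40 (0.0104). *Tk1* read 8.40 to 16.9 CPM in controls and 2.01 to 11.1 CPM in PNs, of which PN 1179 passed the lowest control. *Asf1b* read 2.14 to 7.40 CPM in controls and 0.675 to 3.33 CPM in PNs, with PNs 1179 and 1191 above DRG3. Without DRG5 the 3 calls were lost (adjusted p = 0.0941 for *Gmnn*, 0.126 for *Asf1b* and 0.0797 for *Tk1*), as was that of *Tk1* without DRG4 (0.0590).

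Among the regulators of G1, of 7 G1 cyclins and kinases tested, 3 were called higher in fast-growing PNs (14.8% of all genes were) and 0 in slow-growing PNs (4.12% of all genes). *Ccnd1*, cyclin D1, which links growth signals to the cycle, read 44.3, 74.4 and 54.8 CPM in controls and 341 to 846 CPM in fast-growing PNs. Slow-growing PNs 1079, 1198A, 1202, 1203 and 1206 read 84.4, 423, 56.5, 43.8 and 123 CPM, so that PN 1198A lay among the fast-growing PNs. Summed over 8 genes, fibroblast markers parted the same libraries, at 5491 to 10363 CPM in fast-growing PNs and 5588 CPM in PN 1198A, against 1267 to 4109 CPM in the other slow-growing PNs and 1972 to 3801 CPM in controls. Of the 8 markers taken singly, 3 had every fast-growing PN above every control and every slow-growing PN other than 1198A, 6 had every fast-growing PN above every control, and 4 were higher in PN 1198A than in any other slow-growing PN; *Dpt*, at 52.0 to 82.7 CPM in controls and 0.614 to 35.7 CPM in fast-growing PNs, and *Pi16*, at 19.6 to 37.5 and 1.43 to 21.4 CPM, did none of these, and no marker read 0 in any library. Their part in the level of *Ccnd1* was not tested. In single cells the paper reports *Ccnd1* among the top markers of Schwann cell progenitor-like cells in PNs, whose part was not tested either. The log2 fold change in fast-growing PNs was 3.12 ± 0.37 (edgeR adjusted p = 0.000266), called without each library in turn; with muscle and fat scores as covariates it was 2.6 and not called (adjusted p = 0.650; 7.62e-19 to 0.650 over 10 alternatives), in a fit that called 0 of all genes. The difference between the PN groups was not called. *Ccnd3*, cyclin D3, and *Cdk6*, its kinase, had 1.11 (adjusted p = 0.00834) and 1.62 (0.00957). *Ccnd3* was called in 7 of 10 alternatives (0.53 to 1.31) and *Cdk6* in 9 of 10 (1.49 to 1.95).

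**Figure D5:**
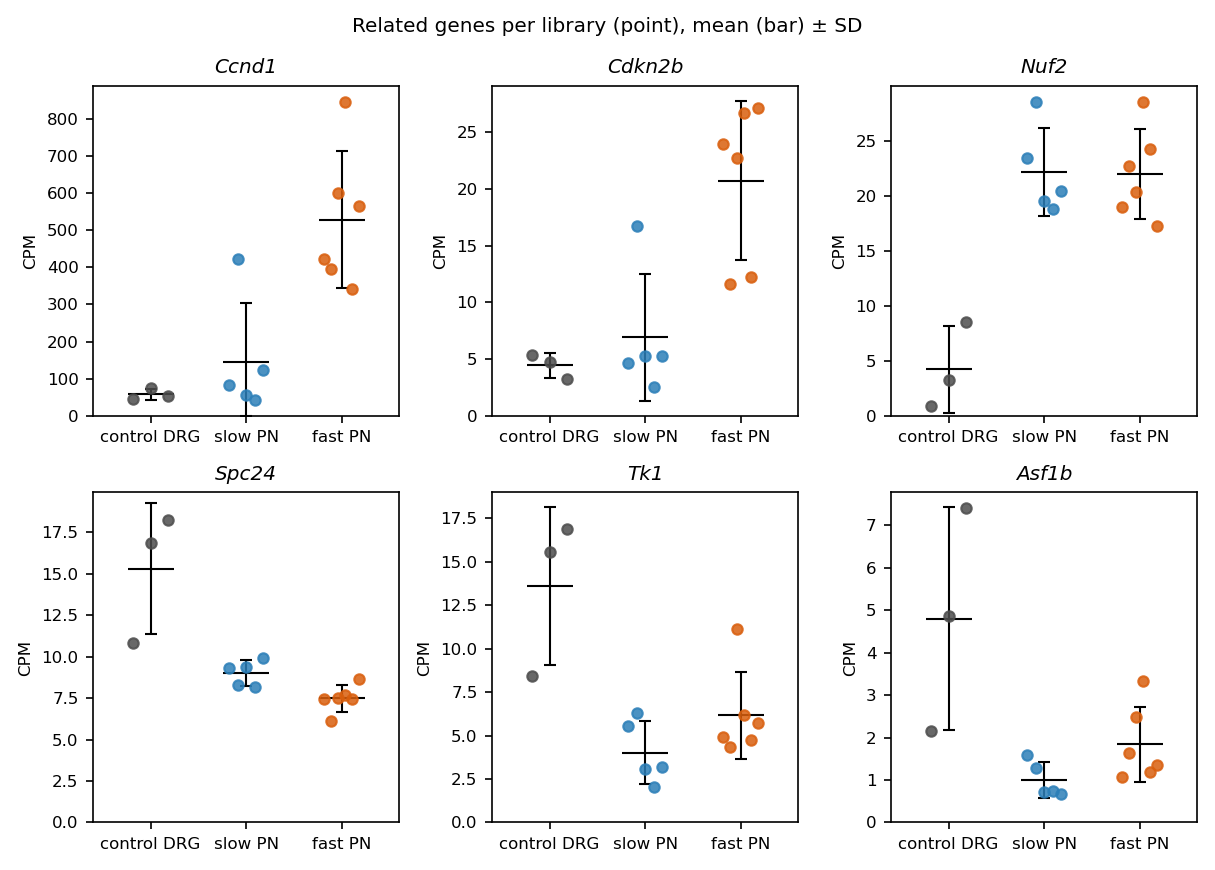
CPM of *Ccnd1*, *Cdkn2b*, *Nuf2*, *Spc24*, *Tk1* and *Asf1b* (y axes) in control DRGs (n = 3), slow-growing PNs (n = 5) and fast-growing PNs (n = 6), 1 point per library, with the group mean and SD as bars; a bar that would pass below 0 ends at 0. *Ccnd1* and *Cdkn2b* are high in fast-growing PNs and in slow-growing PN 1198A, the libraries with 5491 CPM or more of fibroblast markers, and *Nuf2* is high in all PNs.

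Among 10 CDK inhibitors and pocket proteins, which hold back that step, fast-growing PNs had 2 called higher (14.8% of all genes) and 1 called lower (16.7%). *Cdkn2b*, which encodes p15 and blocks CDK4 and CDK6, read 3.23 to 5.40 CPM in controls and 11.6 to 27.2 CPM in fast-growing PNs (log2 fold change 2.15 ± 0.37, edgeR adjusted p = 0.00215), and 16.8 CPM in slow-growing PN 1198A against 2.56 to 5.31 CPM in the other slow-growing PNs. These are the libraries highest in fibroblast markers (5491 to 10363 CPM, against 4109 CPM or less in the rest), whose part in the level of *Cdkn2b* was not tested. The *Cdkn2b* call held without each library in turn, but in 8 of 10 alternatives, with log2 fold changes from 0.24 to 2.74. *Rbl2*, the pocket protein p130 of the DREAM complex, had 0.34 (adjusted p = 0.0404), lost without any 1 of DRG3, DRG4, DRG5, 1053, 1191 or 1214 (0.0535 to 0.134). *Cdkn1a*, which encodes p21, had -0.82 (adjusted p = 0.0461), lost without any 1 of DRG3, DRG5, 1053, 1071, 1179, 1191 or 1214 (0.0594 to 0.230), with a fold change of -0.42 without DRG3.

 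Of 18 other E2F, DREAM and MYB factors 1 was called by edgeR in fast-growing PNs (31.4% of all genes were), *E2f6*, a repressor (-0.66, adjusted p = 0.0188), lost without DRG5 (-0.44, 0.163), PN 1179 (0.0611) or PN 1216 (0.0634). Of 13 p53 targets tested, fast-growing PNs had 3 called higher (14.8% of all genes), *Zmat3*, *Gadd45a* and *Eda2r*, and 2 called lower (16.7%), *Btg2* and *Cdkn1a*. *Zmat3*, an RNA-binding protein, had 1.18 (adjusted p = 0.00275), called without each library in turn and in 8 of 10 alternatives (0.79 to 1.44). *Btg2*, which restrains proliferation, had -1.42 (adjusted p = 0.0478), lost without any 1 of DRG4, DRG5, 1053, 1071, 1179, 1214 or 1216 (0.0580 to 0.282), with -0.82 without DRG5.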

How the data were processed

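Total RNA of 3 control DRGs and 11 PNs (5 slow-growing, 6 fast-growing) was amplified with a NuGEN Ovation v2 kit, and 14 bulk libraries were analysed. According to the submitters' processing notes, base calling used CASAVA 1.4, quality control FastQC 0.11.0, alignment to mm10 TopHat2 2.0.9, counting featureCounts 1.5.2 and normalization edgeR 3.16.5. The authors deposited whole-number counts for 24062 genes, without normalization. A table of log2 values that the authors made from these counts was not used.

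Counts were tested in R 4.3.3 with edgeR 4.0.16 (filterByExpr, TMM factors, glmQLFit and glmQLFTest), with the libraries of each comparison in the fit, no covariate, and Benjamini-Hochberg adjustment over all genes tested; called means an adjusted p under 0.05. DESeq2 1.42.0 and limma 3.58.1 were alternatives. The procedure was tested on simulated data. Single genes were also tested by exact two-sided permutation of mean log2(CPM + 1) with a pseudocount of 1. A floor was set at 3 counts, which was 0.167 to 0.313 CPM. Some readings lie below it, such as *Cdk1* at 0 counts in slow-growing PN 1206. Counts of amplified reads are not independent molecules, so this floor covers counting error only. Levels per kb and positions used GENCODE M21 (22750 of the symbols matched directly and 916 by an older symbol); promoters were RefSeq windows on GRCm38.p6. Plots used matplotlib 3.10.9 (Python 3.11.15).

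The 40 genes and all lists were chosen with earlier results of these data known. Values by library (for fast-growing PNs the lowest, median and highest) were given for *Mki67*, for genes called in any comparison (at most 3 of a role), and for the gene of highest mean CPM in each role; of related lists, called genes were named, at most 3 a direction and comparison. Control and PN differ in tissue makeup, and neither sex nor batch is in the labels, so such differences cannot be told apart from the groups.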

Additional observations from a re-analysis of the deposited data

Results flagged for a closer look

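*Mki67* in fast-growing PN 1191, at 178.8 CPM, lay far from the other 5 fast-growing PNs, which read 26.1 to 68.0 CPM. *Ccne1* in slow-growing PN 1079, at 3.95 CPM, lay far from the other 4 slow-growing PNs, which read 2.22 to 2.63 CPM. A sample is named here when its gap to the nearest of its group, divided by the whole range, passes Dixon's 95% critical value, which chance passes in about 1 of 20 groups; 24 values of named genes in a group were examined. Over all 40 genes and both PN groups, 22 of 80 values passed, 12 with PN 1191 and 10 with PN 1079 as the highest library of its group. The genes share libraries, so these are not independent events. Both PNs are also high in T cell markers, whose part in these levels was not tested.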

How the results depend on the processing

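The number of genes called kept to within 1.5 times its value under most settings in fast-growing PNs against control. Between PN groups it was 0 under all settings run. Over all PNs it kept to that limit under a smaller majority of settings and moved under the rest. In slow-growing PNs it moved under most settings. In slow-growing PNs, 2 were called; the number was 7 with DESeq2 (22.5% of all genes), 1 with no filter on low counts (7.34%), 6 with 1 fit of all 14 libraries (20.1%), and 0 with muscle and fat scores (0 of all genes were then called, in fast-growing PNs too), with the granulocyte precursor and erythroid score (3.66%), with the T cell score (6.4%), or without the libraries high in T cell markers (0 of all genes), and 0 to 8 when 1 library was left out (3.74% to 15.3%). In fast-growing PNs, 4 were called; the number was 0 with muscle and fat scores, 1 with the granulocyte precursor and erythroid score (19.8% of all genes), and 2 to 10 when 1 library was left out (20.4% to 32.1%). Over all PNs, 8 were called; the number was 5 with limma-voom (26.4% of all genes), 4 with transcript length and GC trend removed (21.7%), 1 with muscle and fat scores (2.73%), 4 with the granulocyte precursor and erythroid score (14.2%), 4 with the T cell score (20.4%), 2 without the libraries high in T cell markers (3.3%), and 2 to 13 when 1 library was left out (12.5% to 29.4%). Between PN groups, 196 of all genes were called; this was 130 with DESeq2 size factors, 1570 with DESeq2, 34 with limma-voom, 423 with 1 fit of all libraries, 9 with the granulocyte precursor and erythroid score, 304 with the T cell score, 2 without the libraries high in T cell markers, 0 with muscle and fat scores, and 2 to 1194 when 1 library was left out. Both T cell settings were chosen after seeing the data.

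Called values that turned were *Ccne1* in fast-growing PNs with muscle and fat scores (0.18, adjusted p = 0.972), *E2f6* in fast-growing PNs with muscle and fat scores (0.10, adjusted p = 0.973), *Cdt1* over all PNs without the libraries high in T cell markers (0.25, adjusted p = 0.934) and *Ccnd1* over all PNs with muscle and fat scores (-0.47, adjusted p = 0.842); the cause was not tested. Values below the threshold in the reported comparison turned too: *Mki67* (1.08 in slow-growing and 1.4 in fast-growing PNs) and *Cenpf* in slow-growing PNs (0.71) with muscle and fat scores, *Mki67* in fast-growing PNs (0.21) and *Foxm1* in slow-growing PNs (0.51, or 0.01 with the T cell score) without the libraries high in T cell markers, *Cenpf* in fast-growing PNs without PN 1191 (-0.01), and *Cenpf* (0.03 as reported) and *Foxm1* over all PNs, each under several settings. *E2f1* over all PNs was called in 9 of 9 alternatives and 14 of 14 fits that left out 1 library; in fast-growing PNs it was lost with muscle and fat scores (1.5 on the log2 scale, adjusted p = 0.570, where 0 of all genes were called), and in slow-growing PNs with those, either cell score, or without the libraries high in T cell markers (adjusted p from 0.0581 to 0.802), with fold changes of 1.22 to 1.56 on the log2 scale. *Foxm1* in fast-growing PNs passed with the T cell score (1.19, adjusted p = 0.0359). No paired analysis was possible because the groups share no replicate numbers. Low counts limit *Cdk1*, *Cdt1*, *Ccnb1*, *Ccnb2* and *Bub1*, each with 5 or fewer counts in at least 1 library.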
